A study of Mus musculus with 36 samples.

Results

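A set of 31 genes that mark microglia, the resident macrophages of the brain, was followed through gene counts of cerebellum and hippocampus in *Pogz* mutant and control mice. The members are a list of homeostatic and activation genes that were found by symbol: 31 of the 24421 genes listed in each count table. All 31 exceeded 1 CPM, the count scaled to the library's total, in at least 6 libraries of each tissue, so all 31 were tested, among 14027 genes in the cerebellum and 14339 in the hippocampus.

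The mice were adult C57Bl/6 animals, and their exact age is not given in the labels. Controls had the genotype Pogzfl/fl, with 2 floxed alleles and no Cre. *Pogz* cKO+/- mice were NesCre/+; Pogzfl/+, with 1 floxed allele, and *Pogz* cKO-/- mice were NesCre/+; Pogzfl/fl. The *Nestin* promoter drives Cre in neural progenitors and the neurons and macroglia that come from them, and in those cells 2 intact alleles remain in controls, 1 in cKO+/- and 0 in cKO-/- animals. No group carried Cre without a floxed allele. Each genotype had 6 mice, 3 males and 3 females, and each mouse gave a library of poly(A) RNA from both tissues.

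Microglia arise from yolk sac progenitors and not from the *Nestin* lineage. They depend on signalling through CSF1R and on the transcription factors PU.1 (*Spi1*) and IRF8, and they patrol the tissue with receptors for nucleotides, chemokines and lipids. They also make most of the complement component C1q of the brain, through which synapses and debris are tagged for engulfment. In bulk tissue, a change in these genes can come from more or fewer microglia or from more or less RNA per cell. Since CPM is scaled to the library's total, it can also come from a change in the RNA of other cells. These cannot be told apart here.

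PU.1 binds a purine-rich core written GAGGAA, which reads as TTCCTC on the other strand and is often extended to GAGGAAGT. RefSeq promoters (GRCm38.p6, from 250 bases before to 50 after the start) were at hand for 24 of the 31 genes, as 27 promoters. GAGGAA on either strand lay in 17 of these 27 promoters (63%), from 16 genes, and in 28.3% of all 32851 promoters of the same length. The longer GAGGAAGT, which contains GAGGAA, lay in 4 of the 27 (14.8%), those of *Apbb1ip*, *C1qc*, *Cd53* and *Ctss*, and in 3.2% of all promoters. The 4 promoters shown are those of 3 genes that were called higher with loss of *Pogz* in the cerebellum (*Fcrls*, *Siglech* and *Itgam*) and of *Ctss*, which holds the longer form. The other 3 called genes with a promoter at hand, *P2ry12*, *Cx3cr1* and *Mpeg1*, hold neither form in this window. Capitals mark each match to GAGGAA or TTCCTC, and a match describes the sequence without showing that a factor binds it.
Fcrls, chr3:87263475-87263774, - strand: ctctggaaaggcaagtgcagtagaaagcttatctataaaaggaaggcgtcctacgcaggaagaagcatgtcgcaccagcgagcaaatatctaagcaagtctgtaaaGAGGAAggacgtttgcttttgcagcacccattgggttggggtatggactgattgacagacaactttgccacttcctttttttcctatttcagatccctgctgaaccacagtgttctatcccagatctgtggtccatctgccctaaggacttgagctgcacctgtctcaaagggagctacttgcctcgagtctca
Siglech, chr7:55767934-55768233, + strand: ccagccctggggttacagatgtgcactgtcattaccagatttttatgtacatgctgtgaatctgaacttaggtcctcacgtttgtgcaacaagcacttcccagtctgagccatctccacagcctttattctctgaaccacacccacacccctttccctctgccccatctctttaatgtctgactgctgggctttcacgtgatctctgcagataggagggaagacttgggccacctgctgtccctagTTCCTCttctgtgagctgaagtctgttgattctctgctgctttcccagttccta
Itgam, chr7:128062390-128062689, + strand: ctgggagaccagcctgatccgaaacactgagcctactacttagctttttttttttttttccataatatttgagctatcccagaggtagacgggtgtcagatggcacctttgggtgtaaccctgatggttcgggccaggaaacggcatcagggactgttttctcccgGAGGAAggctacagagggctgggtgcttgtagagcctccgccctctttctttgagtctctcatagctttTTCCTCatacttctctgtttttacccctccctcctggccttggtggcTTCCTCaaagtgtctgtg
Ctss, chr3:95526536-95526835, + strand: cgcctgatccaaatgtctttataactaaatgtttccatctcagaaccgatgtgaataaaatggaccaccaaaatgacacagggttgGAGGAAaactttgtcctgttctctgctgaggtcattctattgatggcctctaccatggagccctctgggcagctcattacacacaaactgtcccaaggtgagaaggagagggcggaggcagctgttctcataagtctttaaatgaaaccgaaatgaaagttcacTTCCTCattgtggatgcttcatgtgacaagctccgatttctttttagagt

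Each cerebellar library held between 21421850 and 32544929 gene counts and each hippocampal library between 17609321 and 45544188. *Pogz* (chr3:94837567-94883567, GRCm38) was at 89.6 to 129.6 CPM in control, 66.4 to 81.5 in cKO+/- and 57.0 to 74.0 in cKO-/- cerebella. In the hippocampus it was at 89.0 to 92.8, 74.0 to 80.2 and 58.7 to 67.7 CPM, so that control libraries lay above mutant libraries in both tissues; these gene counts do not separate the floxed exons. The hippocampal library of cKO-/- mouse Sample_1160 was left out of the hippocampal values unless stated, because it is taken to be the RNA sample that the study excluded. In it, 16 of the 31 microglia genes lay above and 7 below every other hippocampal library, beside 37.2% and 36.7% of all genes tested; *C1qa* was at 152 CPM there and at 38.9 to 57.2 elsewhere. *Gabra6*, a granule cell gene, was at 498 to 1075 CPM in the cerebellar libraries, and in the hippocampus at up to 1.09 CPM except for 49.4 in control mouse Sample_1129. *Ttr*, a choroid plexus gene, exceeded 1000 CPM in the cerebella of mutant mice Sample_933, Sample_1433 and Sample_936 and in the hippocampi of mice Sample_1129, Sample_1170, Sample_1219 and Sample_1385.

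All 31 microglia genes were higher in the hippocampus than in the cerebellum of control mice. Among all 14224 genes of that comparison, 35.2% were higher and 36.7% lower in the hippocampus (edgeR quasi-likelihood test with a term for sex, Benjamini-Hochberg FDR of 0.05). The median difference over the 31 genes was 1.66 on the log2 scale, against -0.02 over all genes. The sum of the 31 genes lay between 203 and 237 CPM in the 6 control cerebella and between 601 and 775 CPM in the 6 control hippocampi, without overlap.

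The size of the tissue difference varied among the genes. *Fcrls*, an Fc receptor-like gene used as a marker of resident microglia, differed most, at 5.43 ± 0.59 CPM in the cerebellum and 26.6 ± 3.3 CPM in the hippocampus (SD, n = 6 mice each), a log2 difference of 2.38 ± 0.09 (SE). *Selplg*, the P-selectin ligand, and *Apbb1ip*, an adaptor for integrin activation, followed with 2.08 ± 0.09 and 2.01 ± 0.12. The surface protein genes *Tmem119*, *Siglech*, *Cx3cr1*, *P2ry13* and *P2ry12* differed by 1.83 to 1.96. The smallest differences were those of *C3ar1*, the receptor of complement fragment C3a, at 0.72 ± 0.16 (adjusted p = 0.000981), and *Ptprc*, which encodes the leukocyte-wide surface phosphatase CD45, at 0.97 ± 0.17 (adjusted p = 0.0002). *Ly86*, *Olfml3*, *Fcer1g* and *Ctss* lay between 1.16 and 1.24, with SE of 0.11 to 0.15, and these 4 neighbours in the order did not differ beyond their errors.

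**Figure D1:**
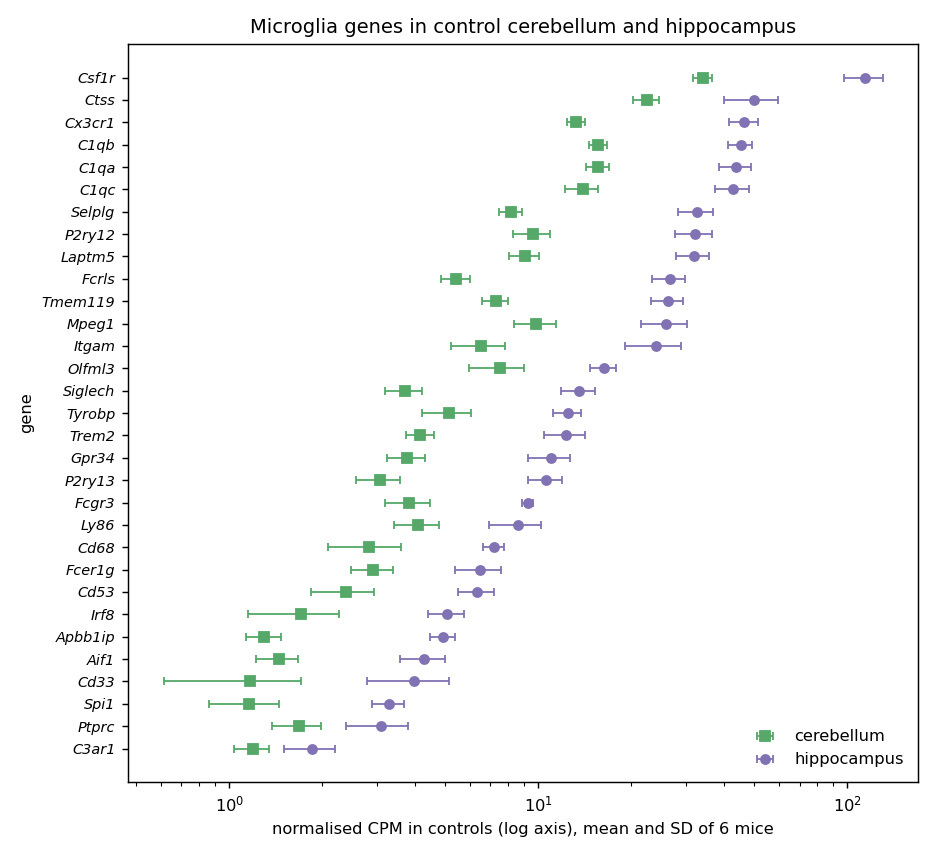
Mean normalised CPM of each of the 31 genes in control cerebellum (squares) and hippocampus (circles) on a log axis, with the SD of 6 mice. Every gene sits further right in the hippocampus, from *C3ar1* at 1.19 against 1.85 CPM to *Csf1r* at 34.0 against 114 CPM.

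Per kilobase of exon, the order of levels was led by complement and lysosomal genes. In control cerebellum, *Ctss*, which encodes the lysosomal protease cathepsin S, was at 16.5 CPM per kilobase, *C1qb*, *C1qa* and *C1qc* at 14.7, 14.5 and 13.2, the signalling adaptor *Tyrobp* at 9.07 and the growth factor receptor *Csf1r* at 8.78. In control hippocampus, the 3 *C1q* genes were at 42.6, 40.5 and 40.4 CPM per kilobase, *Ctss* at 36.7, *Csf1r* at 29.4 and *Tyrobp* at 22.0. *Ptprc* and *C3ar1* were the lowest in both tissues, at 0.296 and 0.277 CPM per kilobase in the cerebellum and 0.545 and 0.431 in the hippocampus.

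With loss of *Pogz* alleles, 7 of the 31 genes rose in the cerebellum and none fell. Over all genes tested there, 7.11% were called higher and 6.55% lower (edgeR quasi-likelihood test with sex and the number of alleles lost, FDR of 0.05). Counting those 7, 16 of the 31 had an unadjusted p under 0.05, and 30 of 31 had a positive change per allele, with *Olfml3* the exception. The median change was 0.19 per allele on the log2 scale, against 0.00087 over all genes. The 7 genes called were 5 of the 8 surface protein genes of homeostatic microglia (*P2ry12*, *Cx3cr1*, *Gpr34*, *Siglech* and *Fcrls*), the integrin subunit *Itgam* and the pore-forming phagosome gene *Mpeg1*.

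*P2ry12* encodes the ADP receptor through which microglia sense injured cells (chr3:59216271-59262831, GRCm38). It ran from 8.22 to 11.5 CPM in controls (median 9.45), from 9.76 to 15.1 in cKO+/- (median 11.2) and from 9.55 to 16.6 in cKO-/- cerebella (median 14.2). Of the 6 cKO-/- libraries, 5 lay above every control and that of mouse Sample_1160 among them. The change was 0.27 ± 0.06 per allele (SE; 95% interval 0.14 to 0.40; adjusted p = 0.00994), the smallest p of the list.

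*Cx3cr1*, the receptor for the neuronal chemokine fractalkine, ran from 12.1 to 14.5 CPM in controls, with a median of 13.2. Its medians were 17.2 CPM in cKO+/- (13.02 to 20.3) and 19.0 CPM in cKO-/- cerebella (14.3 to 23.0), and only the library of mouse Sample_1160 fell within the control range among the cKO-/- libraries. The change was 0.25 ± 0.06 per allele, with an adjusted p of 0.0148.

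*Fcrls*, whose promoter is shown above, ran from 4.57 to 5.95 CPM in controls (median 5.65), from 5.66 to 8.70 in cKO+/- (median 6.93) and from 6.29 to 14.2 in cKO-/- cerebella (median 7.63). It was the one member in which every cKO-/- library lay above every control, as 2.67% of all genes tested did; in none of the 31 did every cKO-/- library lie below every control, as in 1.9% of all genes. Its change was 0.34 ± 0.09 per allele (adjusted p = 0.0187), and the library of mouse Sample_1385, at 14.2 CPM, was far above the next one, at 9.72.

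The 4 other called genes changed by similar amounts, and their control and cKO-/- libraries overlapped. *Siglech*, a lectin-like receptor, had medians of 3.68 CPM in controls (3.21 to 4.42) and 5.15 in cKO-/- (4.24 to 6.42) and changed by 0.25 ± 0.07 per allele (adjusted p = 0.0323). *Gpr34*, a receptor for lysophosphatidylserine, had medians of 3.76 CPM (2.98 to 4.47) and 4.99 (4.45 to 7.48), a change of 0.26 ± 0.08 (adjusted p = 0.0459). *Itgam*, which encodes the CD11b chain of complement receptor 3, had medians of 6.63 CPM (4.54 to 8.30) and 9.36 (7.23 to 14.2) and changed by 0.28 ± 0.09 (adjusted p = 0.0449). *Mpeg1* had medians of 9.57 CPM (8.08 to 12.1) and 14.6 (11.03 to 20.5), with a change of 0.30 ± 0.09 (adjusted p = 0.0401).

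The genes of the C1q complex did not pass the threshold. *C1qb* changed by 0.26 ± 0.09 per allele (adjusted p = 0.0698), *C1qa* by 0.22 ± 0.09 (adjusted p = 0.118) and *C1qc* by 0.19 ± 0.09 (adjusted p = 0.173). *C3ar1* was at 0.07 ± 0.08. Complement thus had 1 of 5 genes called, *Itgam*.

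None of the 5 immunoreceptors and adaptors was called. *Trem2*, a lipid receptor, and its signalling adaptor *Tyrobp* changed by 0.09 ± 0.07 and 0.16 ± 0.10 per allele, with adjusted p of 0.407 and 0.305. *Cd33*, an inhibitory sialic acid receptor, had the largest estimate of all 31, at 0.38 ± 0.15, with an adjusted p of 0.0843. It rested on 17 to 89 counts per cerebellar library. Its controls ran from 0.642 to 2.16 CPM, on both sides of the filter of 1 CPM, so mutant libraries helped it pass. The same holds for *Spi1*, at 0.755 to 1.52 CPM in controls. Neither estimate is separate support for the direction of the list. *Fcer1g* and *Fcgr3*, a signalling chain and a receptor for antibodies, were at 0.23 ± 0.10 and 0.13 ± 0.11.

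Of the 4 lysosome and phagosome genes, *Mpeg1* was called, while *Ctss*, *Laptm5* and *Cd68* were at 0.17 ± 0.10, 0.19 ± 0.09 and 0.16 ± 0.11 per allele. *Csf1r*, the receptor that microglia need for survival, was at 0.14 ± 0.07, and the transcription factors *Spi1* and *Irf8* at 0.18 ± 0.11 and 0.19 ± 0.12, none of them past the threshold. Among the leukocyte-wide and secreted genes, *Cd53* at 0.33 ± 0.13 and *Apbb1ip* at 0.31 ± 0.14 had the largest estimates, with adjusted p of 0.0869 and 0.126. *Olfml3*, a secreted olfactomedin-like protein, was the one negative value, -0.11 ± 0.11 (adjusted p = 0.535).

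The number of members called changed when single libraries were left out. It was 2 without cKO-/- mouse Sample_1385, 3 without cKO-/- mouse Sample_1371 or control Sample_1155 or Sample_1172, 4 without cKO-/- mouse Sample_936 or control Sample_1170 or Sample_1190, and 14 without cKO-/- mouse Sample_1160. All genes called moved too, from 1916 with every library to 935 without Sample_1385, 1234 without Sample_1371 and 2572 without Sample_1160. Without control Sample_1170 they numbered 1962. *P2ry12* and *Cx3cr1* were called in all 18 fits that left out 1 mouse, *Fcrls* in all but that without mouse Sample_1385. Without the 3 libraries with *Ttr* above 1000 CPM, 4 members were called (*P2ry12*, *Cx3cr1*, *Siglech* and *Fcrls*), and with the cerebellar marker genes as a covariate 2 were (*P2ry12* and *Cx3cr1*). All genes called numbered 1487 and 1396 in these settings.

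Compared pairwise, the same 7 genes were higher in cKO-/- than in control cerebella (6.83% of all genes were), by 0.49 to 0.67 on the log2 scale. Between cKO+/- and control cerebella, 0 of 31 were called by edgeR, as were 0.342% of all genes; 12 had an unadjusted p under 0.05, DESeq2 called 0 too, and all 31 estimates were positive, with a median of 0.36. The corresponding median of cKO-/- against control was 0.39. The 2 contrasts share their controls.

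**Figure D2:**
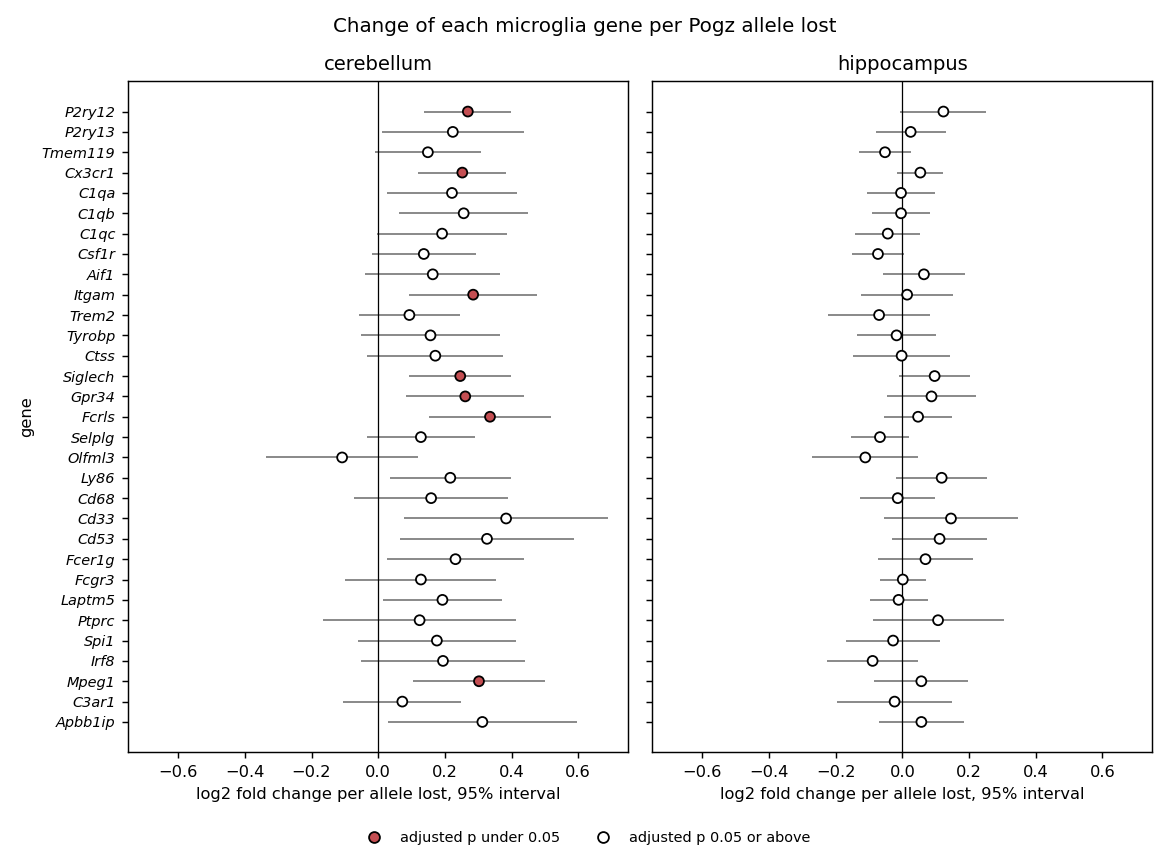
Log2 fold change of each gene per *Pogz* allele lost, with its 95% interval, in the cerebellum (18 libraries) and the hippocampus (17 libraries). Filled points passed an FDR of 0.05: 7 lie right of 0 in the cerebellum and none in the hippocampus.

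In the hippocampus of the same mice, none of the 31 genes was called there by edgeR, against 4.44% of all genes tested in either direction, and 0 had an unadjusted p under 0.05; DESeq2 called 0. Of the 31 estimates, 16 were positive, and their median was 0.0014 on the log2 scale. *P2ry12*, the member with the smallest p, had medians of 30.9 CPM in controls (28.1 to 40.3), 30.2 in cKO+/- (29.3 to 36.8) and 42.8 in cKO-/- hippocampi (29.1 to 46.1). Its change was 0.12 ± 0.06 per allele (95% interval -0.0059 to 0.25; adjusted p = 0.268), and its groups overlapped. *Csf1r* was at -0.07 ± 0.04 (95% interval -0.15 to 0.0059) and *Fcrls* at 0.05 ± 0.05 (-0.06 to 0.15).

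No gene of the list separated cKO-/- from control hippocampi, where every cKO-/- library lay above every control for 1.53% of all genes and below for 2.12%. The sum of the 31 genes was 601 to 775 CPM in controls (median 670), 646 to 741 in cKO+/- (median 688) and 620 to 740 in the 5 cKO-/- hippocampi (median 679). The 2 highest sums were those of controls Sample_1129 and Sample_1155, and control Sample_1129 is the library with cerebellar and choroid plexus transcripts. Pairwise, 0 of 31 genes were called in cKO-/- (4.87% of all genes) and 0 in cKO+/- hippocampi (0.0349%) by edgeR, with 1 at an unadjusted p under 0.05 in each and 0 called by DESeq2. With the library of mouse Sample_1160 included, 0 of 31 were called per allele and the median was 0.06.

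The allele effect was then compared between the tissues in 1 fit over 35 libraries. Without the animal as a block, 0 of the 31 genes differed by edgeR (1.65% of all genes did), with 12 at an unadjusted p under 0.05; all 31 differences were negative, that is, lower in the hippocampus, with a median of -0.20. Each mouse gave both tissues, and with the animal as a block 2 members were called (2.36% of all genes were) and 23 had an unadjusted p under 0.05. These were *C1qb*, at -0.30 ± 0.08 (adjusted p = 0.0499), and *Itgam*, at -0.31 ± 0.08 (adjusted p = 0.04995), both just inside the threshold. *Fcrls* and *Irf8* had blocked differences of -0.31 ± 0.10 and -0.35 ± 0.10, with adjusted p of 0.0862 and 0.0682. Neither fit held a term for the range of mouse numbers described below, so its part in these differences was not tested. In cerebellar fits with that term, *C1qb* and *Itgam* were at 0.01 ± 0.06 and 0.09 ± 0.08 per allele. In hippocampal fits with it they were at -0.08 ± 0.05 and -0.05 ± 0.09.

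Sex was not accompanied by a difference that passed the threshold. In the cerebellum 0 of 31 were called by edgeR (0.0499% of all genes were) with 2 at an unadjusted p under 0.05, and in the hippocampus 0 of 31 (0.907%) with 1. In the cerebellum 3 of the 31 estimates were higher in females, with a median of -0.13 for female against male beside 0.0045 over all genes; in the hippocampus 19 were, with a median of 0.03. With relative log expression (RLE) size factors 0 were called in either tissue.

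The cerebellar values of the microglia genes differed between mice inside and outside a range of mouse numbers. The labels number the mice from Sample_933 to Sample_1433, without saying what a number stands for. All 6 controls have numbers between Sample_1120 and Sample_1219, as do 3 cKO+/- and 2 cKO-/- mice, while 3 cKO+/- mice (Sample_933, Sample_938 and Sample_1433) and 4 cKO-/- mice (Sample_936, Sample_1371, Sample_1379 and Sample_1385) lie outside. The controls themselves run from Sample_1129 to Sample_1192, and the range ends at mutant mice. The outside numbers lie on both sides of it, from Sample_933 to Sample_938 and from Sample_1371 to Sample_1433. The summed level of the 31 genes was 226, 229 and 229 CPM in the 3 cKO+/- cerebella inside this range and 314, 341 and 375 CPM in the 3 outside. In cKO-/- cerebella it was 204 and 254 CPM inside and 282, 292, 325 and 406 CPM outside. The controls lay between 203 and 237 CPM, so that 4 of the 5 mutant libraries inside the range fell among the controls and all 7 outside lay above them.

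**Figure D3:**
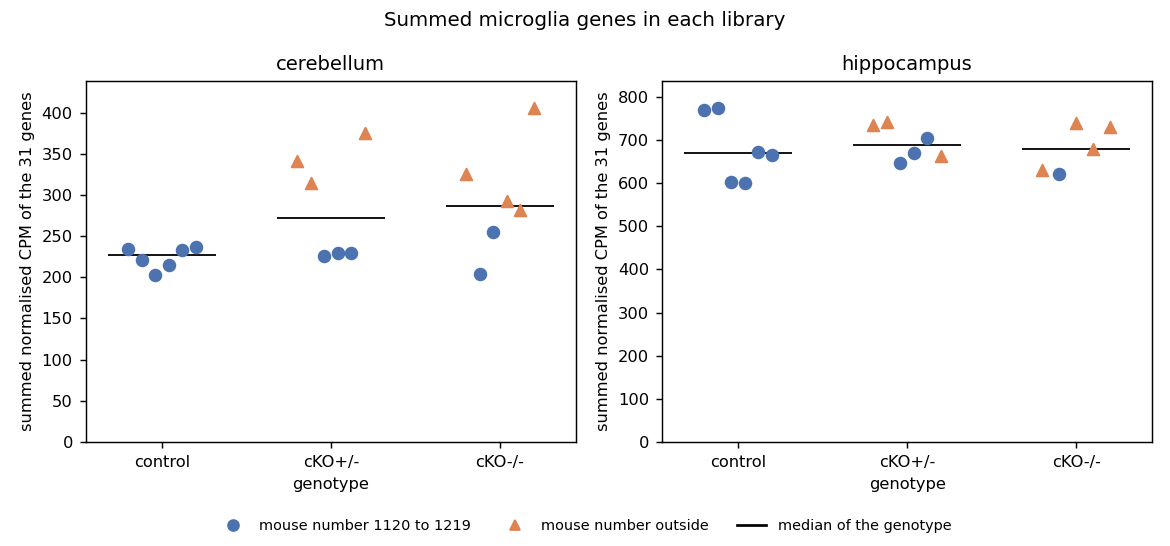
Summed normalised CPM of the 31 genes in each cerebellar (left) and hippocampal (right) library by genotype, with mouse numbers of Sample_1120 to Sample_1219 as circles, other numbers as triangles and the median of a genotype as a line. In the cerebellum the 7 triangles lie between 282 and 406 CPM, above every circle; in the hippocampus, drawn without Sample_1160, triangles and circles overlap.

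When a term for mice outside the range stood beside genotype and sex, 0 of 31 genes were called per allele in the cerebellum, against 2.2% of all genes, with 4 at an unadjusted p under 0.05. The median change per allele was then 0.0046, with 18 of 31 positive. Of the 7 genes called before, *Fcrls* and *P2ry12* had the largest estimates in this fit, 0.17 ± 0.09 and 0.16 ± 0.06 per allele (adjusted p = 0.365 and 0.233). Among the 11 cerebella inside the range alone, 0 members were called and the median was 0.02; that fit holds 2 cKO-/- mice.

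The range term itself was called for 20 of the 31 genes, all higher outside, beside 6.65% of all genes, and 30 of 31 had an unadjusted p under 0.05. Its median was 0.54 on the log2 scale. The genes with the largest values were *Ptprc*, at 0.96 ± 0.16 (adjusted p = 0.00318), *Cd53*, a leukocyte tetraspanin, at 0.84 ± 0.16 (adjusted p = 0.00722), and *Apbb1ip*, at 0.81 ± 0.19 (adjusted p = 0.0168). *Ctss* had the smallest adjusted p, 0.000785, with a difference of 0.74 ± 0.09.

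*Ctss* ran from 28.5 to 41.2 CPM in the 7 cerebella outside the range, from 20.7 to 26.2 in controls and from 19.8 to 24.3 in the 5 mutants inside it. *C1qa* and *C1qb* were both at 0.68 on the log2 scale, with SE of 0.11 and 0.10; *C1qb* ran from 19.0 to 32.9 CPM outside, from 14.5 to 17.3 in controls and from 14.6 to 17.2 in the mutants inside. *Trem2* and *C3ar1* had the smallest range terms, 0.29 ± 0.13 and 0.20 ± 0.17, neither past the threshold.

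In 13 of the 31 genes every cerebellum outside the range lay above every control, as in 4.35% of all genes. In 0 of the 31 did every mutant cerebellum inside the range lie above every control, as in 1.03% of all genes. Since no control lies outside the range, a difference between outside mice and controls cannot be told apart from genotype, while the differences within the cKO+/- and within the cKO-/- group do not involve controls. In the hippocampus the range term was called for 0 of 31 genes and for 0% of all genes by edgeR, with 3 members at an unadjusted p under 0.05 and a median of 0.13.

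**Figure D4:**
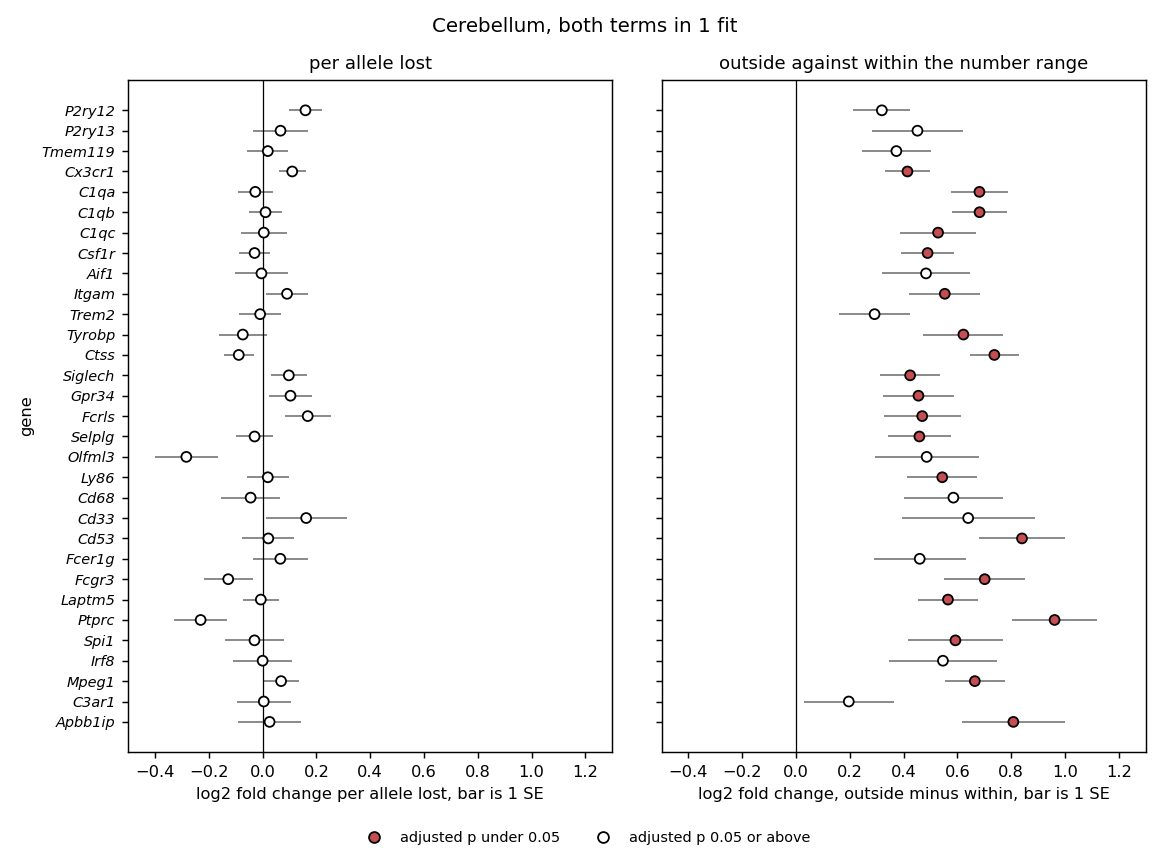
Cerebellar log2 fold changes of each gene from 1 fit with both terms, per *Pogz* allele lost (left) and outside against within the number range (right), with bars of 1 SE and filled points for an adjusted p under 0.05. No gene is filled on the left and 20 are on the right, where all 31 points lie above 0.

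**Figure D5:**
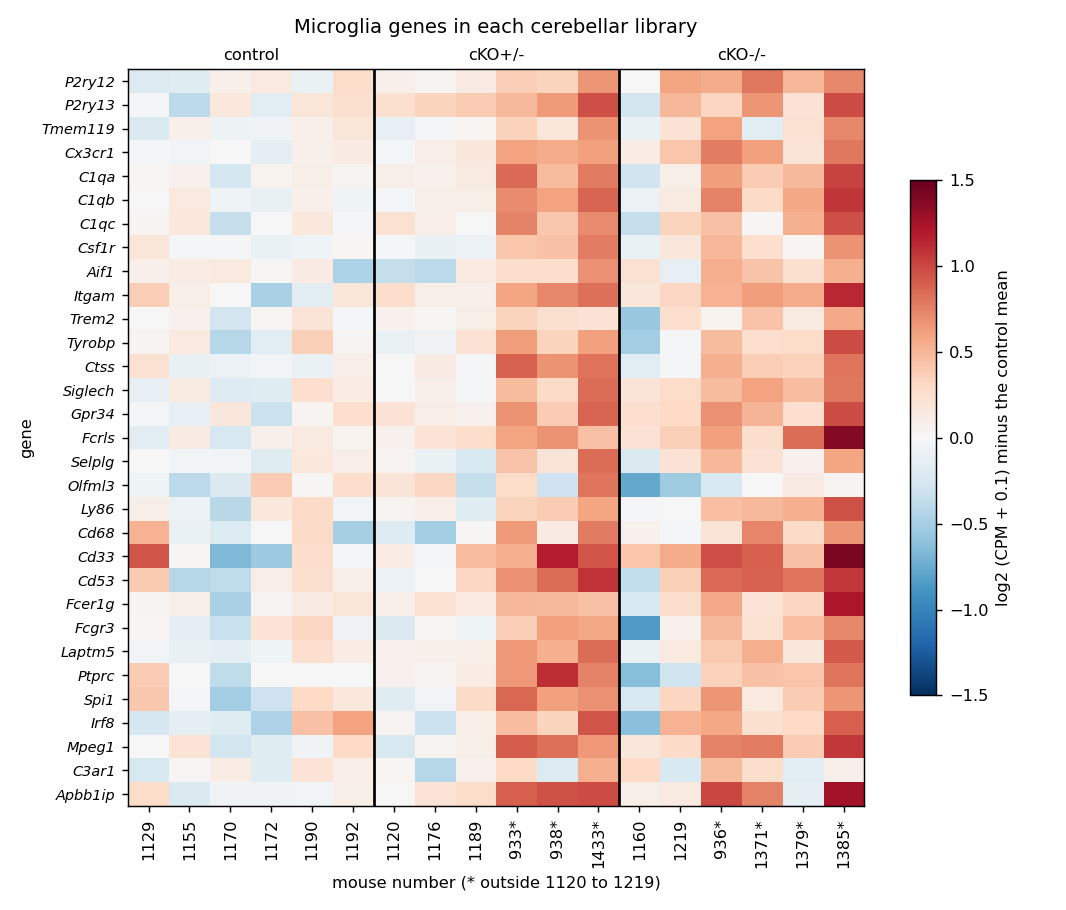
Each gene (rows) in each cerebellar library (columns, by genotype and mouse number, asterisks outside Sample_1120 to Sample_1219) as log2 of CPM plus 0.1, minus the control mean. The columns with asterisks are the redder ones, while mutant columns without one lie nearer to 0, with mouse Sample_1160 below 0 for several genes and mouse Sample_1219 above 0 for *P2ry12*.

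Some other cell markers moved with the cerebellar microglia genes and some did not. Apart from the cerebellar marker covariate and the fit without the libraries high in *Ttr*, no fit took them into account. Their part in the result was not otherwise tested. *Gabra6* was at 910 to 1040 CPM in controls and at 498 to 896 CPM in the 7 cerebella outside the range. Of the 8 cerebellar markers tested, 3 were called lower outside and 0 higher. The share of all genes called lower outside was not computed, so counts of markers called lower stand without one. Another cerebellar marker, *Pcp2*, overlapped, at 285 to 451 CPM in controls and 218 to 474 CPM outside. The summed markers of meningeal fibroblasts, 8 of 8 tested, were at 211 to 293 CPM in controls, 286 to 365 in mutants inside and 393 to 567 outside; 7 of the 8 were called higher per allele, 4 of them also with the range term. Choroid plexus markers had the largest range term of the marker lists, with 5 of 6 tested called higher outside, beside 6.65% of all genes. The median was 2.69 on the log2 scale. Their sum was 2375 to 3189 CPM in outside mice Sample_933, Sample_936 and Sample_1433. It was 24.1 to 81.6 CPM in outside mice Sample_938, Sample_1371, Sample_1379 and Sample_1385, and 21.2 to 29.3 in controls. Of the astrocyte and oligodendrocyte markers, 1 of 8 each was called higher outside, *Gfap* at 0.52 ± 0.16 and *Cnp* at 0.35 ± 0.09. Per allele, 3 of 8 and 2 of 8 were called higher, beside 7.11% of all genes, with medians of 0.05 and 0.22. The astrocyte marker *Aqp4* kept its call beside the range term, at 0.29 ± 0.06 per allele (adjusted p = 0.0138). Of 8 endothelial markers 0 were called with the range term (median -0.07). Of 8 neuronal markers 1 was called higher and 1 lower outside (median -0.21). Border-associated macrophages, which share many genes with microglia, had 6 of 9 markers tested, with sums of 23.2 to 27.1 CPM in controls, 24.0 to 32.4 in mutants inside and 28.6 to 48.1 outside. Their genes *Mrc1* and *Stab1* were called higher per allele, at 0.32 ± 0.10 and 0.22 ± 0.06, and not with the range term, at 0.14 ± 0.10 and 0.12 ± 0.06 (adjusted p = 0.549 and 0.353). Of 11 markers of blood leukocytes none passed the filter. Their sum was 1.07 to 3.99 CPM in controls, 1.16 to 3.30 in mutants inside and 2.45 to 7.0 outside, with overlap. The microglia genes themselves do not mark these cells alone: *Ptprc*, *Cd53*, *Itgam*, *Csf1r* and *Cd68* are shared with other macrophages and leukocytes.

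The 31 genes varied together. After genotype and sex were removed, the correlation of log2 CPM between members across the 18 cerebellar libraries had a median of 0.69 over 465 pairs, and 462 of them were above 0. Across 17 hippocampal libraries the median was 0.41, with 396 pairs above 0. These libraries share mice, depth and, in the cerebellum, the number range. *C1qb* and *Laptm5*, a lysosomal membrane protein, were most like the rest in the cerebellum, with a median correlation of 0.81 with the other 30 genes, and *C3ar1* least, with 0.21. In the hippocampus *Csf1r* was most like the rest (0.66), while *Apbb1ip* had a median of -0.36.

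A further list of 31 microglia genes that are not members gave the same direction in the cerebellum. Of 28 tested, 4 rose and 1 fell per allele, where 7.11% of all genes rose and 6.55% fell, and 25 estimates were positive, with a median of 0.18. *Slc2a5*, a fructose transporter, went from 0.562 ± 0.053 CPM in controls to 1.13 ± 0.35 in cKO-/- cerebella (SD, n = 6 each), a change of 0.50 ± 0.11 per allele (adjusted p = 0.00921). Its controls lay under the filter of 1 CPM, so it was tested only because mutant libraries passed. Its rise is therefore not separate support for the direction of the list. The other genes were read from the same libraries as the members, so they are not independent of them either. Among the others, *Plcg2*, the phospholipase downstream of TREM2, and *Rnase4*, a secreted ribonuclease, rose by 0.36 ± 0.10 and 0.27 ± 0.09, and the integrin *Itgb5* fell by 0.13 ± 0.04. With the range term none of the 28 was called per allele, beside 2.2% of all genes, and 12 were called higher outside, beside 6.65%.

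In the hippocampus, 2 of that list fell and 0 rose among 31 tested, a share close to the 4.44% of all genes called. *Plcg2* went from 7.85 ± 0.59 CPM in controls to 5.29 ± 0.29 in cKO-/- hippocampi, -0.28 ± 0.04 per allele (adjusted p = 0.000887), and *Cyth4*, an exchange factor for small GTPases, from 26.0 ± 2.5 to 19.6 ± 1.1, -0.20 ± 0.05 (adjusted p = 0.021; SD, n = 6 and 5). With the range term these were -0.27 ± 0.06 (adjusted p = 0.0535) and -0.19 ± 0.07 (adjusted p = 0.434). *Plcg2* had opposite signs in the tissues, and the difference between them was not tested for this gene.

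Of 16 disease-associated microglia genes tested in the cerebellum, 3 rose, where 7.11% of all genes did, and 0 of 18 in the hippocampus changed past the threshold (4.44% of all genes). With the range term 0 of the 16 were called per allele, beside 2.2% of all genes, and 8 were called higher outside, beside 6.65%. *Lyz2*, a lysozyme of macrophages, rose by 0.45 ± 0.13 per allele and *Igf1*, a growth factor also made by neurons, by 0.34 ± 0.07 (adjusted p = 0.0323 and 0.00411). *Lpl*, a lipase of lipid-loaded microglia and of neurons, rose by 0.74 ± 0.23 (adjusted p = 0.0412). *Apoe*, made mostly by astrocytes, was at 0.06 ± 0.06 in the cerebellum and -0.07 ± 0.04 in the hippocampus. Beside the range term *Lyz2*, *Lpl* and *Igf1* were at 0.08 ± 0.08, 0.25 ± 0.23 and 0.26 ± 0.08 per allele (adjusted p = 0.653, 0.641 and 0.0966), and the range term of *Lyz2* was 1.01 ± 0.13 (adjusted p = 0.000785).

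Among 13 tested ligands and receptors that keep microglia alive and at rest, 1 fell in the cerebellum and 1 rose in the hippocampus, close to the shares of all genes called (6.55% lower in the cerebellum, 4.44% in the hippocampus). *Tgfb3*, a transforming growth factor, fell by 0.19 ± 0.05 per allele in the cerebellum (adjusted p = 0.0132), and *Cd200*, a neuronal ligand that restrains microglia, rose by 0.23 ± 0.05 in the hippocampus (adjusted p = 0.0193). With the range term neither was called (*Tgfb3* -0.14 ± 0.05, adjusted p = 0.217, and *Cd200* 0.18 ± 0.07, adjusted p = 0.531). The CSF1R ligands *Csf1* and *Il34* were at 0.07 ± 0.05 and 0.02 ± 0.09 in the cerebellum and at -0.02 ± 0.04 and 0.0057 ± 0.05 in the hippocampus. *Cx3cl1*, which encodes the ligand of CX3CR1, was at 0.17 ± 0.10 and -0.02 ± 0.04.

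Of the wider complement cascade, *Cd55* and *Cd59a*, which restrain complement on cell surfaces, rose in the cerebellum by 0.60 ± 0.11 and 0.33 ± 0.10 per allele (adjusted p = 0.00207 and 0.032), and *Cfp*, properdin, fell by 0.42 ± 0.13 (adjusted p = 0.0387). These were 2 higher and 1 lower of 11 genes tested, beside 7.11% and 6.55% of all genes. None of the 3 was called with the range term, where *Cd55* was at 0.31 ± 0.09, *Cd59a* at 0.11 ± 0.09 and *Cfp* at -0.40 ± 0.16 per allele (adjusted p = 0.105, 0.58 and 0.252). In the hippocampus, *Cd93*, a receptor of endothelium and myeloid cells, rose by 0.44 ± 0.09 (adjusted p = 0.00729) and *C4b*, complement component 4, fell by 0.53 ± 0.13 (adjusted p = 0.0229), 2 of 13 beside 4.44% of all genes. With the range term *Cd93* was at 0.27 ± 0.10 (adjusted p = 0.4996) and *C4b* at -0.75 ± 0.14 (adjusted p = 0.0196). *C4b* went from 31.9 ± 12.7 CPM in controls to 15.0 ± 2.2 in cKO-/- hippocampi (SD, n = 6 and 5). Of 14 inflammatory cytokines and chemokines, 2 were above the filter in the cerebellum and 3 in the hippocampus; *Cxcl16* rose in the cerebellum by 0.39 ± 0.11 (adjusted p = 0.0277), and no other was called. With the range term *Cxcl16* was at 0.18 ± 0.10 per allele (adjusted p = 0.433) and 0.59 ± 0.17 higher outside (adjusted p = 0.0392).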

How the data were processed

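Poly(A) RNA (RIN above 8.5) of both tissues was sequenced as 43 bp paired-end reads. The deposited counts per gene were made by the authors with STAR (version 250a in the submitters' processing notes), which also name mm9, although the deposited gene coordinates match GRCm38. Which annotation was used, whether strand was counted and how reads with several matches were handled is not given in the sources used here. Columns were matched to mice by number within each tissue's table.

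From the raw counts, genes were kept if 6 or more libraries exceeded 1 CPM, TMM factors were computed, and edgeR 4.0.16 (R 4.3.3) quasi-likelihood tests were fitted with sex and the number of alleles lost, with Benjamini-Hochberg adjustment over all genes tested. Standard errors are the estimate over the square root of F, and intervals use the t quantile of each gene's degrees of freedom. Hippocampal fits held 17 libraries, with filter and TMM factors over 18. DESeq2 1.42.0, RLE size factors, no filter, no sex term, the bias-adjusted fit, a term for the mouse number range and each library left out were alternatives. The scripts were tested on simulated data. Totals per library bound the precision of low genes, and p-values rest on the spread between mice. Every member is described, with its values by group where it was called; of other lists, the called genes with the smallest p, at most 5 a list, were named, except 1 that is not reported here, and any other gene was chosen after its values were seen. The members and lists were chosen with earlier results of these data known. Mouse numbers pair the tissues because each mouse gave both: over 17 mice the correlation of same-numbered deviations from the group means ran from -0.16 to 0.43 (median 0.19), and it exceeded 0.1 in 14.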

Additional observations from a re-analysis of the deposited data

Results flagged for a closer look

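In 7 of 192 groups of libraries, 1 library stood apart from its group by Dixon's test, where chance flags about 1 in 20. In control cerebellum, *C1qa* was at 12.9 CPM in mouse Sample_1170 (15.8 to 16.5 in the others), *Fcer1g* at 2.04 CPM in the same mouse (2.98 to 3.30) and *Aif1* at 0.997 CPM in mouse Sample_1192 (1.45 to 1.59). In cKO+/- hippocampus, *Trem2* was at 7.56 CPM in mouse Sample_1433 (12.8 to 14.7) and *Spi1* at 4.55 CPM in mouse Sample_938 (2.98 to 3.25). In cKO-/- hippocampus, *Selplg* was at 26.8 CPM in mouse Sample_1379 (30.3 to 30.8) and *C3ar1* at 2.33 CPM in mouse Sample_1385 (1.61 to 1.70).

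In the hippocampal library of cKO-/- mouse Sample_1160, which the comparisons did not use, 16 of the 31 microglia genes lay above every other hippocampal library, beside 37.2% of all genes tested.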

How the results depend on the processing

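Of the 7 members called per allele in the cerebellum, the count was 0 with the term for the mouse number range, 0 among mice within the range, 4 without the libraries with *Ttr* above 1000 CPM and 2 with the cerebellar marker genes as a covariate, the last 2 settings chosen after seeing the data. It ran from 2 to 14 when each library was left out in turn, and that of cKO-/- against control from 2 to 13. In the hippocampus the count of cKO-/- against control was 0 to 1, with 1 member called without mouse Sample_936. The cerebellar count per allele was 7 with RLE size factors, the bias-adjusted fit or no sex term, 8 with DESeq2 and 5 with no filter. All genes called in the cerebellum numbered 1916, against 308 with the range term and 277 within the range. They numbered 1487 without the *Ttr* libraries, 1396 with the marker covariate and 935 to 2572 when each library was left out. With the animal as a replicate block the tissue difference of the allele effect was called for 2 members against 0 without it, and the block left the 31 calls between control tissues as they were. The cause of these shifts was not tested. Depth limits the lowest members: *Cd33* had 17 to 89 counts per cerebellar library.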
